A study of Capra hircus with 9 samples.

Results

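The interferon-stimulated genes examined here were ISG15, MX1, MX2, IFIT2, IFIT3, IFI6, IFI44, RSAD2 and IRF7. They were chosen by name, with earlier results of these data known. These 9 genes are among the 21664 genes obtained by summing the 52739 transcripts of the table. The members comprise 18 of those transcripts. RNA was taken from submandibular glands of healthy female Lubo goats (Capra hircus) and depleted of ribosomal RNA. The 1-month, 12-month and 24-month groups differed in age, and each held 3 libraries from 3 separate goats. The spread within a group therefore combines differences between animals, in the tissue sampled and in library preparation, which cannot be told apart. The glands were not sorted into cell types. Library totals were 11825357, 17586065 and 11546808 expected counts at 1 month, 19274941, 21065278 and 18231894 at 12 months, and 22477853, 24901065 and 22040776 at 24 months, in the order of replicates 1, 2 and 3, which is kept throughout. Levels are CPM, counts scaled to a fixed library total, on library sizes corrected with TMM, a method that adjusts for differences in composition. A level of 3 counts corresponded to 0.145 to 0.189 CPM, and lower levels were not detectable at this depth, counting error alone being considered.

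Interferons are secreted proteins released when cells sense viral or other foreign nucleic acid. Type I interferons bind the receptor chains IFNAR1 and IFNAR2, the kinases JAK1 and TYK2 are then activated, and a complex that holds STAT2 and IRF9 switches on a large set of genes, many of whose products block steps of virus growth. Salivary glands are exposed to oral microbes, and epithelial cells, macrophages and lymphocytes can all mount this response.

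The libraries differed in tissue composition, and 3 of them need to be named before the results. Summed CPM of the 8 salivary epithelium markers was 1925, 427 and 1248 at 1 month, between 4938 and 5849 at 12 months and between 4135 and 4735 at 24 months. In 1-month replicate 2 defining markers of the gland were close to the floor, among them ELF5, an epithelial transcription factor, at 0.258 CPM, AQP5, the acinar water channel, at 0.4645 CPM against 217 and 127 CPM in the other 1-month libraries, and CFTR, a chloride channel, at 0.206 CPM against 13.6 and 10.6 CPM. Its most abundant marker of this list was KRT8, a keratin of many simple epithelia, at 303 CPM. The 10 thymocyte markers summed to 3139, 10848 and 1454 CPM at 1 month, led by RAG1 in each library, and to between 4.40 and 14.95 CPM at the older ages. The 5 thymic epithelium markers summed to 174, 695.5 and 68.35 CPM at 1 month and to at most 2.58 CPM at the older ages, where AIRE stood at 0 in every library. In 1-month replicate 3 the 7 neutrophil markers summed to 993 CPM, led by S100A12 at 331.5 CPM, against 12.4 and 53.6 CPM in the other 1-month libraries and 1.47 to 7.64 CPM at the older ages. Its 10 macrophage markers summed to 2725 CPM, led by SIGLEC1, a surface lectin that is itself interferon-inducible, at 771 CPM, against 643 and 714 CPM in the other 1-month libraries and 158 to 273 CPM at the older ages, where MARCO was at 0 in every library. The third library, 24-month replicate 2, stood apart in the members but not in these lists, with neutrophil markers at 2.715 CPM and macrophage markers at 255 CPM. In bulk tissue, fewer cells of a type and less RNA per cell cannot be told apart.

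**Figure D1:**
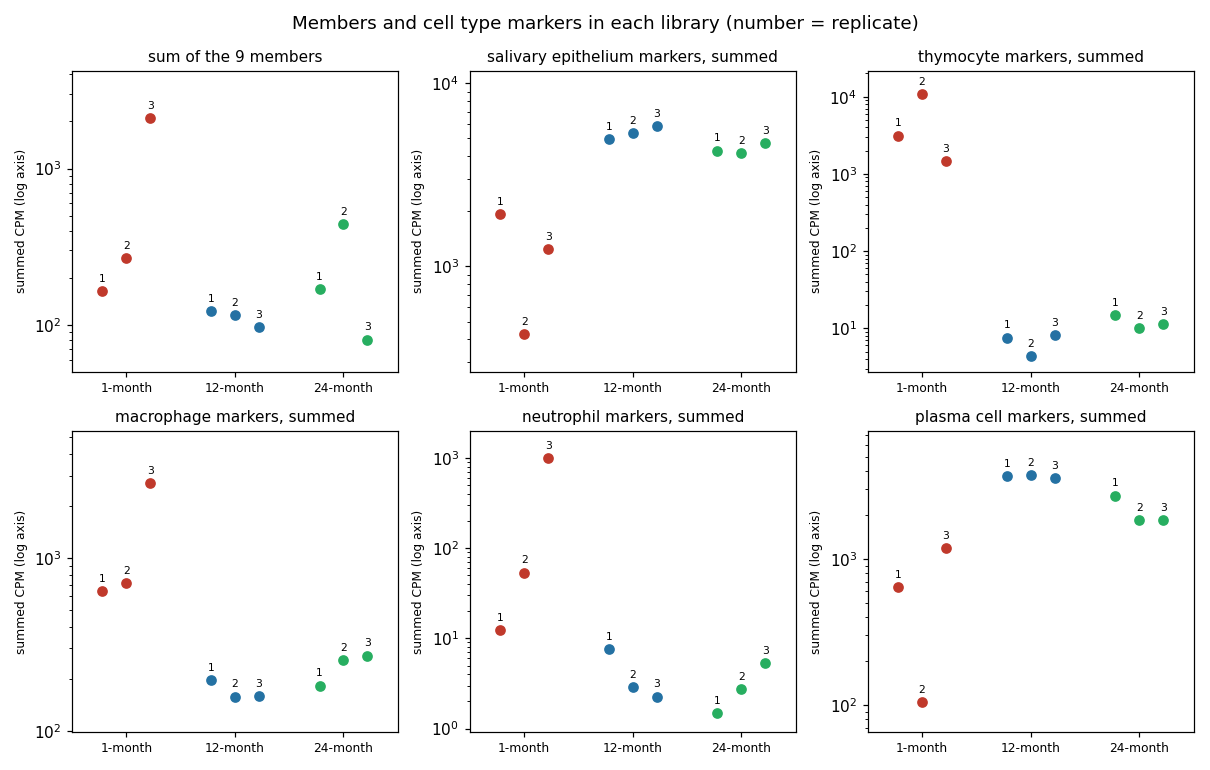
Summed CPM of the 9 members and of 5 marker lists in each library, on log axes, with points coloured by age and numbered by replicate. The members reach 2105 CPM in 1-month replicate 3, where neutrophil and macrophage markers are also highest, and 442 CPM in 24-month replicate 2, where neutrophil markers sum to 2.715 CPM.

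All 9 members were detected in every library, and each was highest in 1-month replicate 3. Among the 15193 genes tested in any comparison, 12.0% had their highest level in that library. Within the 6 older libraries, 8 of the 9 members were highest in 24-month replicate 2, against 12.6% of those 15193 genes, and IFI44 was the exception. The highest level of a member was between 2.24 and 6.35 times its second highest, with a median of 4.12.

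ISG15 encodes a ubiquitin-like protein that is attached to other proteins and is also secreted. Its level was 1.13, 7.59 and 41.1 CPM at 1 month, 0.892, 0.936 and 0.269 CPM at 12 months, and 1.15, 8.24 and 1.90 CPM at 24 months. Every 12-month library lay below every library of both other ages, although the lowest 1-month value, from 18.3 counts, lay close to the highest 12-month value, from 17.1 counts. The 1-month and 24-month values overlapped.

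MX1 and MX2 encode dynamin-like GTPases that trap viral components, and they are neighbours in the RefSeq annotation of assembly ARS1.2. MX1 stood at 39.5, 102 and 534 CPM at 1 month, 34.1, 37.5 and 20.5 CPM at 12 months, and 46.3, 110 and 27 CPM at 24 months. MX2 stood at 18.8, 37.7 and 323 CPM, 15.7, 10.8 and 13.6 CPM, and 31.5, 50.9 and 9.14 CPM at the same ages. For each of the pair the 12-month values lay below all 1-month values and the 24-month values overlapped with them. MX proteins resemble each other closely, so reads shared by the pair could have been divided between them.

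IFIT2 and IFIT3, which are also neighbours, encode tetratricopeptide repeat proteins that act with IFIT1 on viral RNA. IFIT2 was at 17.97, 30.4 and 119.5 CPM at 1 month, 6.97, 3.96 and 4.14 CPM at 12 months, and 5.565, 9.50 and 2.62 CPM at 24 months. It was the only member whose 1-month values lay above all 6 older values, and 12-month and 24-month values overlapped. IFIT3 was at 14.8, 13.9 and 140 CPM, 14.45, 11.6 and 12.2 CPM, and 11.8, 34.0 and 5.44 CPM. Its values overlapped between every pair of ages.

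IFI6 encodes a small membrane protein that opposes cell death and virus replication. Its levels were 50.0, 49.3 and 739 CPM at 1 month, 27.7, 24.2 and 29.3 CPM at 12 months, and 45.1, 184 and 19.8 CPM at 24 months. The 12-month values were below all 1-month values, whereas those at 24 months spanned both. IFI44 encodes a cytoplasmic protein and adjoins IFI44L in the annotation. It was at 12.0, 4.90 and 63.0 CPM, 11.1, 16.1 and 9.955 CPM, and 14.95, 11.05 and 2.98 CPM, and its lowest 1-month value, in replicate 2, was under every 12-month value.

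RSAD2 encodes viperin, an enzyme that makes a chain-terminating nucleotide. It was at 7.23, 9.60 and 114 CPM at 1 month, 7.36, 6.82 and 3.12 CPM at 12 months, and 10.15, 20.85 and 4.21 CPM at 24 months, and all pairs of ages overlapped. Its neighbour CMPK2, which supplies the nucleotide that viperin acts on, was at 5.03, 6.14 and 52.2 CPM, 6.25, 5.28 and 6.62 CPM, and 7.26, 13.1 and 6.67 CPM. IRF7, the transcription factor that drives type I interferon genes, was at 4.02, 12.4 and 31.0 CPM, 4.41, 4.57 and 3.71 CPM, and 4.255, 13.8 and 7.85 CPM. Its 1-month replicate 1 value lay among the 12-month values.

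Within-group spread differed by age. The highest library was between 6.65 and 36.4 times the lowest for a member at 1 month (median 13.5), between 1.21 and 3.48 times at 12 months (median 1.61) and between 3.25 and 9.28 times at 24 months (median 5.02). As mean ± SD (n = 3), IFI6 was 280 ± 398 CPM at 1 month, 27.05 ± 2.58 CPM at 12 months and 82.9 ± 88.3 CPM at 24 months.

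**Figure D2:**
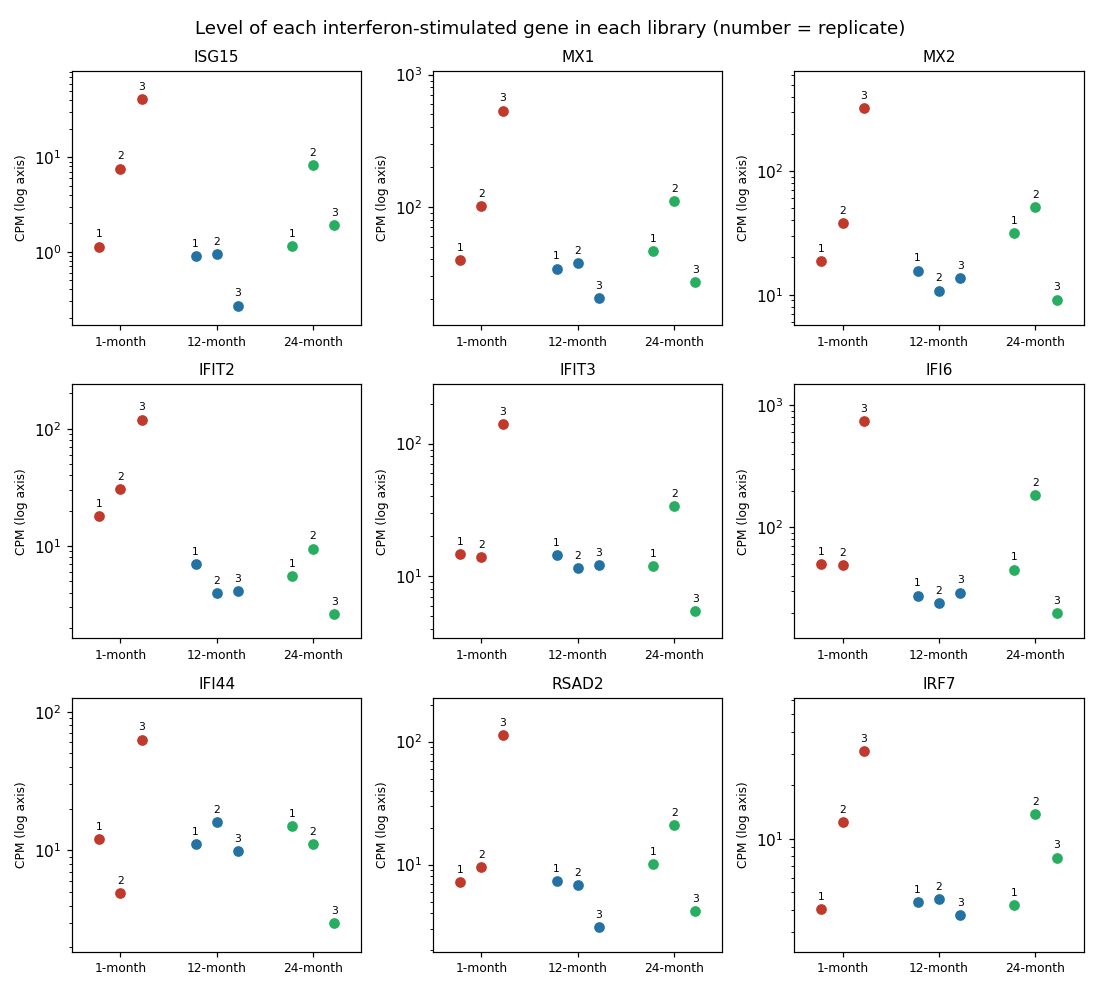
CPM of each member in each library on a log axis, with points grouped by age and numbered by replicate. Every member is highest in 1-month replicate 3, and IFIT2 alone has all 1-month points above all older points.

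In 12-month against 1-month glands, all 9 members had lower fitted levels and 1 of them, IFIT2, was called. A gene was called when its adjusted p was below 0.05 and its log2 fold change exceeded 2 in size, by edgeR's quasi-likelihood test with Benjamini-Hochberg adjustment over all genes. By that rule 11.7% of the 14883 genes tested were called, and at the adjusted p alone 18.3% passed, beside 1 of 9 members. IFIT2 fell by 3.42 on the log2 scale (SE 0.754, adjusted p = 0.0270 by edgeR's quasi-likelihood test with Benjamini-Hochberg adjustment). The median log2 fold change of the members was -2.84, against -0.02 over all genes tested, and the members ranged from -4.50 for ISG15 to -1.03 for IFI44. The adjusted p from edgeR's quasi-likelihood test with Benjamini-Hochberg adjustment was 0.0536 for ISG15, 0.0748 for MX1, 0.0746 for MX2, 0.0796 for IFI6, 0.1 for IRF7, 0.110 for RSAD2, 0.143 for IFIT3 and 0.396 for IFI44. At an unadjusted p under 0.05 there were 7 of 9 members, beside 37.8% of all genes tested. Groups did not overlap for 5 of 9 members, namely ISG15, MX1, MX2, IFIT2 and IFI6, beside 53.5% of all genes tested, so that share is not particular to the members.

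Leaving out single libraries moved the calls, and leaving out 1-month replicate 3 moved the fold changes as well. Without 1-month replicate 3 the median log2 fold change of the members was -0.97, that of IFIT2 was -2.28 with its call kept (adjusted p = 0.0298, edgeR's quasi-likelihood test with Benjamini-Hochberg adjustment), and that of IFI44 was 0.54. In that fit 1454 genes were called in all and 1756 passed at the adjusted p alone. Over the 6 fits that each left out 1 library, the adjusted p of IFIT2 from edgeR's quasi-likelihood test with Benjamini-Hochberg adjustment ranged from 0.0106 to 0.115. Without 1-month replicate 1 there were 5 members called among 1631 genes in all, and without 1-month replicate 2, the library low in gland markers, there were 7 among 1904. At the adjusted p alone 2044 and 6589 genes passed in those fits, against 2719 with all 6 libraries. Leaving out 12-month replicate 1, 2 or 3 gave 0 members by the same test, with 0, 75 and 125 genes called in all against 1738 with all 6 libraries. IFIT2 was at -3.70, -3.26 and -3.29 in those fits and the members' median at -3.03, -2.97 and -2.58, so the fold changes stayed about as large. The Wald test of DESeq2 called 4 members among 2301 genes and the exact test of edgeR 6 among 2285. DESeq2 gave no adjusted p for IFIT3, IFI6 and RSAD2 in that comparison, so they could not be called by it.

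In 24-month against 1-month glands, which use the same 1-month libraries, the fitted level of every member was again lower and IFIT2 was again the 1 member called, beside 13.4% of the 14953 genes tested. At the adjusted p alone 17.6% of genes passed, beside 1 of 9 members. IFIT2 fell by 3.11 on the log2 scale (SE 0.807, adjusted p = 0.0337 by edgeR's quasi-likelihood test with Benjamini-Hochberg adjustment). The members' median log2 fold change was -1.74, against -0.01 over all genes, from -3.11 for IFIT2 to -0.73 for IRF7. For the other 8 members the adjusted p from edgeR's quasi-likelihood test with Benjamini-Hochberg adjustment lay between 0.228 and 0.524. An unadjusted p under 0.05 was reached by 1 of 9 members beside 34.3% of all genes, and groups did not overlap for 1 of 9 beside 43.6%. Both of those shares were below the background.

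Leaving out 1-month replicate 3 turned the median log2 fold change of the members to 0.19. The fitted values of MX2 (0.19), IFIT3 (0.35), IFI6 (0.83), IFI44 (0.28), RSAD2 (0.57) and IRF7 (0.15) were then above 0, ISG15 was at -0.13 and MX1 at -0.13. IFIT2 stayed lower, at -1.95, but was not called (adjusted p = 0.0877, edgeR's quasi-likelihood test with Benjamini-Hochberg adjustment). In that fit 1594 of all genes passed, against 2635 with all 6 libraries. The call was also lost without 24-month replicate 1, 2 or 3, where IFIT2 was at -3.03, -3.67 and -2.75 and 1593, 553 and 309 of all genes passed. Its adjusted p over the 6 fits ranged from 0.0118 to 0.13 (edgeR's quasi-likelihood test with Benjamini-Hochberg adjustment). Without 24-month replicate 2 the median was -2.54. Without both 1-month replicate 3 and 24-month replicate 2 it was -0.57, and IFIT2 was at -2.53.

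**Figure D3:**
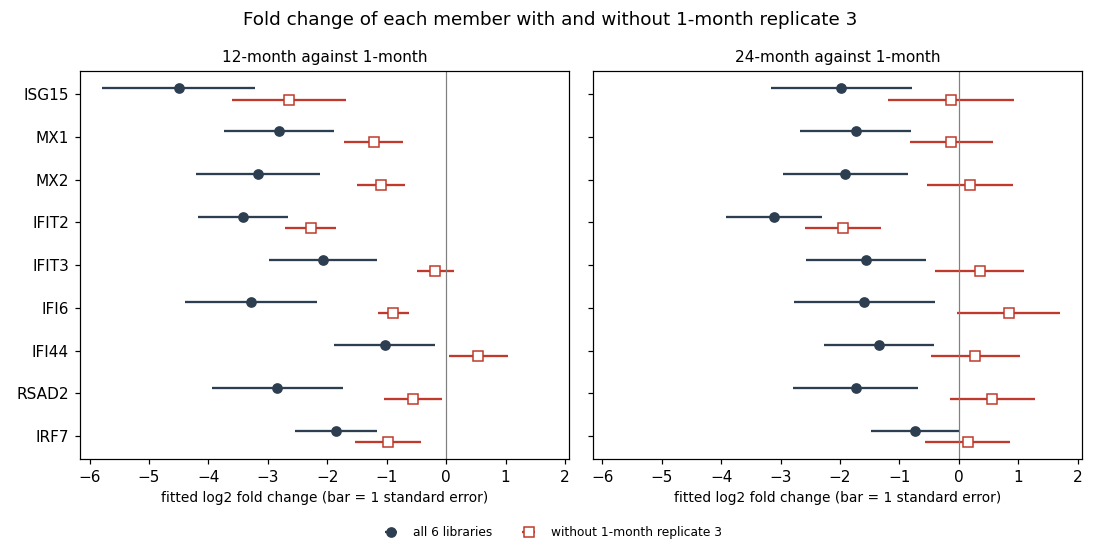
Fitted log2 fold change of each member at 12 and at 24 months against 1 month, with bars of 1 standard error, for all 6 libraries of the comparison (filled) and without 1-month replicate 3 (open). IFIT2 stays below 0 in each fit, at -2.28 and -1.95 without that library, while the median of the members moves to -0.97 and 0.19.

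In 24-month against 12-month glands, edgeR's quasi-likelihood test called 0 of 9 members and 0 of 14288 genes (0%), and 0% of genes passed at the adjusted p alone. The Wald test of DESeq2 and the exact test of edgeR called 0 members too, and 13 and 16 genes. At an unadjusted p under 0.05 there were 4 of 9 members, ISG15, MX2, IFI6 and IRF7, beside 10.9% of all genes. The members' median log2 fold change was 1.09, against 0.04 over all genes. Fitted values ranged from 2.49 for ISG15 to -0.31 for IFI44, the only member with a lower fitted level at 24 months. Groups did not overlap for 1 of 9 members, ISG15, beside 15.4% of all genes. Leaving out 24-month replicate 2 brought the median to 0.29 and the fitted values of IFIT2 and IFIT3 to -0.26 and -0.53. In the fit without 24-month replicate 1, 172 genes were called and 4616 passed at the adjusted p alone, against 0 with all 6 libraries. That fit gave 1 member called, ISG15, at 2.93 (adjusted p = 0.0235, edgeR's quasi-likelihood test with Benjamini-Hochberg adjustment, whose range over the 6 fits was 0.0235 to 0.873). At the adjusted p alone 2 members passed there, the other being IRF7 at 1.42 (adjusted p = 0.0166, edgeR's quasi-likelihood test with Benjamini-Hochberg adjustment). Leaving out 24-month replicate 3 put IFI44 at 0.0737.

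Other genes of the pathway were followed by role, with an adjusted p under 0.05 from the same test counted as passing. The background for each list was the 18.3% and 17.6% of all genes that passed at 12 and 24 against 1 month. Without 1-month replicate 3 that background also shrank, from 2719 and 2635 genes passing to 1756 and 1594. Interferon ligands came first. Of 60 genes whose product is an alpha, beta, gamma, omega, tau, epsilon, kappa or lambda interferon, 2 exceeded 3 counts in any library, and the 60 together had 0.880 counts in 1-month replicate 3 and 4.92 counts in 24-month replicate 2. Ligand transcripts were therefore not detectable at this depth in the library where every member was highest.

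Of the 6 receptor chains, 3 fell in both comparisons with 1 month and 0 rose. IFNAR1, a chain of the type I receptor, was at 134, 131 and 108 CPM at 1 month, 30.3, 29.7 and 26.4 CPM at 12 months, and 28.3, 18.4 and 15.35 CPM at 24 months. IFNAR2, its partner, was at 50.9, 67.9 and 47.9 CPM, 20.6, 11.6 and 11.4 CPM, and 14.9, 9.65 and 6.98 CPM, and IL10RB, which serves the type III interferon and interleukin-10 receptors, at 36.1, 78.55 and 28.1 CPM, 8.59, 12.9 and 10.3 CPM, and 6.22, 10.5 and 10.8 CPM. These 3 genes had every 1-month value above every older value, and 1-month replicate 3 was not the highest of its group for any of them. The log2 fold changes at 12 and 24 months were -2.08 and -2.5 for IFNAR1, -1.91 and -2.32 for IFNAR2, and -2.15 and -2.28 for IL10RB. Their adjusted p with edgeR's quasi-likelihood test with Benjamini-Hochberg adjustment was 0.00730 and 0.00739 for IFNAR1, 0.0161 and 0.0117 for IFNAR2, and 0.0274 and 0.0240 for IL10RB. Without 1-month replicate 3 the log2 fold changes were -2.22 and -2.61 for IFNAR1, -2.04 and -2.43 for IFNAR2, and -2.45 and -2.57 for IL10RB. The gene order IFNGR2, IFNAR1, IL10RB and IFNAR2 is continuous in the annotation, and IFNGR2, a chain of the interferon-gamma receptor, did not pass, with 91.4, 158 and 110 CPM at 1 month and 69.45 to 111 CPM in the older libraries. None of the 3 passed at 12 months when any 12-month library was left out (adjusted p from 0.0569 to 0.117 by edgeR's quasi-likelihood test with Benjamini-Hochberg adjustment), in fits where at most 125 of all genes passed. The log2 fold changes in those fits were from -2.10 to -2.01 for IFNAR1, from -2.22 to -1.76 for IFNAR2 and from -2.31 to -2 for IL10RB. At 24 months IFNAR1 and IFNAR2 did not pass without 24-month replicate 2 or 3, and IL10RB did not pass without any one 24-month library (adjusted p from 0.0547 to 0.0918 by edgeR's quasi-likelihood test with Benjamini-Hochberg adjustment), while the log2 fold changes of the 3 genes without a 24-month library stayed between -2.74 and -2.04.

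Among the 6 signalling genes only IRF9, a DNA-binding partner of STAT2, passed, and only at 12 months, where its log2 fold change was -1.85. Its levels were 32.8, 78.0 and 107 CPM at 1 month, 18.7, 23.55 and 16.5 CPM at 12 months, and 28.9, 53.2 and 39.8 CPM at 24 months. Without 1-month replicate 3 the log2 fold change of IRF9 was -1.52 and its adjusted p 0.0763 (edgeR's quasi-likelihood test with Benjamini-Hochberg adjustment).

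Of the 7 other interferon regulatory factors, 4 fell and 1 rose at 12 months, and 2 fell and 1 rose at 24 months. IRF1, an activator of many interferon-stimulated genes, was at 54.2, 125 and 86.8 CPM at 1 month, 14.7, 9.85 and 12.4 CPM at 12 months and 20.9, 25.02 and 25.8 CPM at 24 months. It fell at both older ages, with log2 fold changes of -2.82 and -1.80. IRF8, a factor of myeloid and B cells, fell likewise (log2 fold changes -2.74 and -2.41), from 20.2, 24.3 and 59.1 CPM to between 3.98 and 7.08 CPM in the 6 older libraries. IRF2 and IRF3 passed at 12 months only, with log2 fold changes of -1.71 and -1.57. No gene of this list passed at 24 months without 1-month replicate 3, with IRF1 at -1.84 and IRF8 at -1.83 (adjusted p 0.0523 and 0.0560 by edgeR's quasi-likelihood test with Benjamini-Hochberg adjustment).

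Of the 14 sensors and adaptors, 2 fell at 12 months and 0 passed at 24 months. With edgeR's quasi-likelihood test 4 of the 14 had an unadjusted p under 0.05 at 24 months, beside 34.3% of all genes. TLR9, a DNA sensor of plasmacytoid dendritic cells and B cells, fell at 12 months (log2 fold change -2.51), from 10.1, 22.1 and 14.8 CPM to 2.90, 2.48 and 2.74 CPM. MB21D1, the cytosolic DNA sensor cGAS, fell too (log2 fold change -1.39), from 11.6, 9.03 and 19.0 CPM to 4.57, 5.28 and 4.68 CPM. It did not pass without 1-month replicate 1 or 3, where it was at -1.55 and -1.10 (adjusted p 0.0669 and 0.0950 by edgeR's quasi-likelihood test with Benjamini-Hochberg adjustment). The RNA sensor gene DDX58, itself interferon-inducible, was at 18.1, 15.7 and 162 CPM at 1 month and 44.55 CPM in 24-month replicate 2, and its adaptor MAVS was at 25.8, 34.3 and 24.4 CPM at 1 month and between 23.7 and 56.3 CPM later, neither passing.

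Of the 8 genes of ISG15 conjugation and of restraint of the response, 5 fell at 12 months, 2 fell at 24 months and 0 rose. USP18, which removes ISG15 from proteins and blocks IFNAR2 signalling, was at 41.7, 118 and 67.7 CPM at 1 month, 5.35, 5.72 and 5.81 CPM at 12 months and 7.365, 13.9 and 6.83 CPM at 24 months, with log2 fold changes of -3.73 and -2.92. SOCS3, an inhibitor of cytokine receptors, was at 37.3, 144 and 36.7 CPM and then between 1.61 and 7.39 CPM, with log2 fold changes of -4.56 and -4.01. At 12 months SOCS1, UBA7, the enzyme that activates ISG15, and TRIM25, a ubiquitin ligase, fell as well (log2 fold changes -3.55, -2.11 and -1.76). UBA7 did not pass without 1-month replicate 3, where it was at -1.31 (adjusted p 0.0816 by edgeR's quasi-likelihood test with Benjamini-Hochberg adjustment). Without 1-month replicate 2 SOCS1 was at -2.26, and SOCS3 at -3.60 and -3.02 at 12 and 24 months. USP18, SOCS1 and SOCS3 were highest in 1-month replicate 2 and not in replicate 3. HERC5 and HERC6, which encode ligases of the family that attaches ISG15, were highest in replicate 3 and did not pass, with HERC6 at 14.8, 12.3 and 92.6 CPM at 1 month.

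Of 37 further interferon-stimulated genes, 32 were found in the table and 29 could be tested in each comparison. At 12 months 12 fell and 0 rose, and at 24 months 8 fell and 1 rose. IFITM1, a membrane protein that hinders virus entry, fell at 12 months (log2 fold change -4.57), from 57.6, 321 and 168 CPM to 12.3, 7.10 and 3.50 CPM. The log2 fold changes at 12 and 24 months were -3.79 and -2.64 for BST2, which tethers budding virions, and -2.68 and -2.52 for SP110, a nuclear body protein. They were -2.51 and -2.54 for the ADP-ribosyltransferase PARP14, -2.12 and -3.11 for the restriction factor TRIM5, -2.63 and -2.29 for EPSTI1, and -2.25 and -2.22 for the nucleotide hydrolase SAMHD1. XAF1 and PARP12 passed at 12 months only, with log2 fold changes of -2.62 and -2.30. Among the other passing genes NMI fell at both ages and TRIM21 at 12 months. XAF1 (-1.67), NMI (-0.90) and TRIM21 (-1.01) did not pass at 12 months without 1-month replicate 3, with adjusted p from 0.0712 to 0.116 by edgeR's quasi-likelihood test with Benjamini-Hochberg adjustment. In the 24-month fit without it BST2 (-2.42), PARP14 (-1.97), EPSTI1 (-1.69), SAMHD1 (-1.44) and NMI (-1.35) did not pass, with adjusted p from 0.0515 to 0.123 by edgeR's quasi-likelihood test with Benjamini-Hochberg adjustment, and SAMHD1 was at -1.51 at 12 months. NMI did not pass without 1-month replicate 1 either, where it was at -1.06 and -1.49 at 12 and 24 months, against -1.04 and -1.53 with all 6 libraries. IFITM1 was at -3.90 at 12 months without 1-month replicate 2. IFI27 went the other way, with 0, 0.310 and 0.125 CPM at 1 month and 0.655, 7.66 and 3.54 CPM at 24 months (log2 fold change 4.77), and its 1-month counts were too few for a firm fold. It did not pass without 1-month replicate 1 or 3, where it was at 4.21 and 4.64. Without 24-month replicate 2 or 3 there were 0 genes of this list that rose, but IFI27 had no fitted value in those fits. OASL and PLSCR1 were listed at 0 counts in all 9 libraries. IFITM and OAS genes have near-identical copies, so their values are uncertain.

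Over these 6 role lists, 27 of 70 genes tested fell and 1 rose at 12 months, and 15 fell and 2 rose at 24 months, beside the 18.3% and 17.6% of all genes that passed. Their median log2 fold change was -1.63 and -1.24. Without 1-month replicate 3 there were 20 falls at 12 months and 8 at 24 months, with medians of -0.90 and -0.47. In those fits 1756 and 1594 of all genes passed, against 2719 and 2635 with all 6 libraries. Without 1-month replicate 2 there were 46 and 26, in fits where 6589 and 4300 of all genes passed, and the Wald test of DESeq2 gave 38 and 31, with 4727 and 4053 of all genes. Leaving out 12-month replicate 1, 2 or 3 left 0 passing genes of the lists at 12 months, with medians of -1.62, -1.60 and -1.61 close to that with all 6 libraries, in fits where 0, 75 and 125 of all genes passed. Leaving out 24-month replicate 3 also left 0 at 24 months, with a median of -1.15 and 309 of all genes passing against 2635 with all 6 libraries. Without 24-month replicate 1 there were 7 falls and without 24-month replicate 2 there were 3, in fits where 1593 and 553 of all genes passed. Between 24 and 12 months edgeR's quasi-likelihood test passed 0 of the 70, with 12 at an unadjusted p under 0.05, beside 0% and 10.9% of all genes. The Wald test of DESeq2 and the exact test of edgeR passed 0 of the 70 too, with 25 and 24 of all genes passing. In that comparison 6 lower and 19 higher genes of the lists passed without 24-month replicate 1, in a fit where 4616 of all genes passed. The highest library of the 9 was 1-month replicate 3 for 42 of 71 of these genes and 1-month replicate 2 for 16, beside 12.0% and 28.5% of all genes tested.

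**Figure D4:**
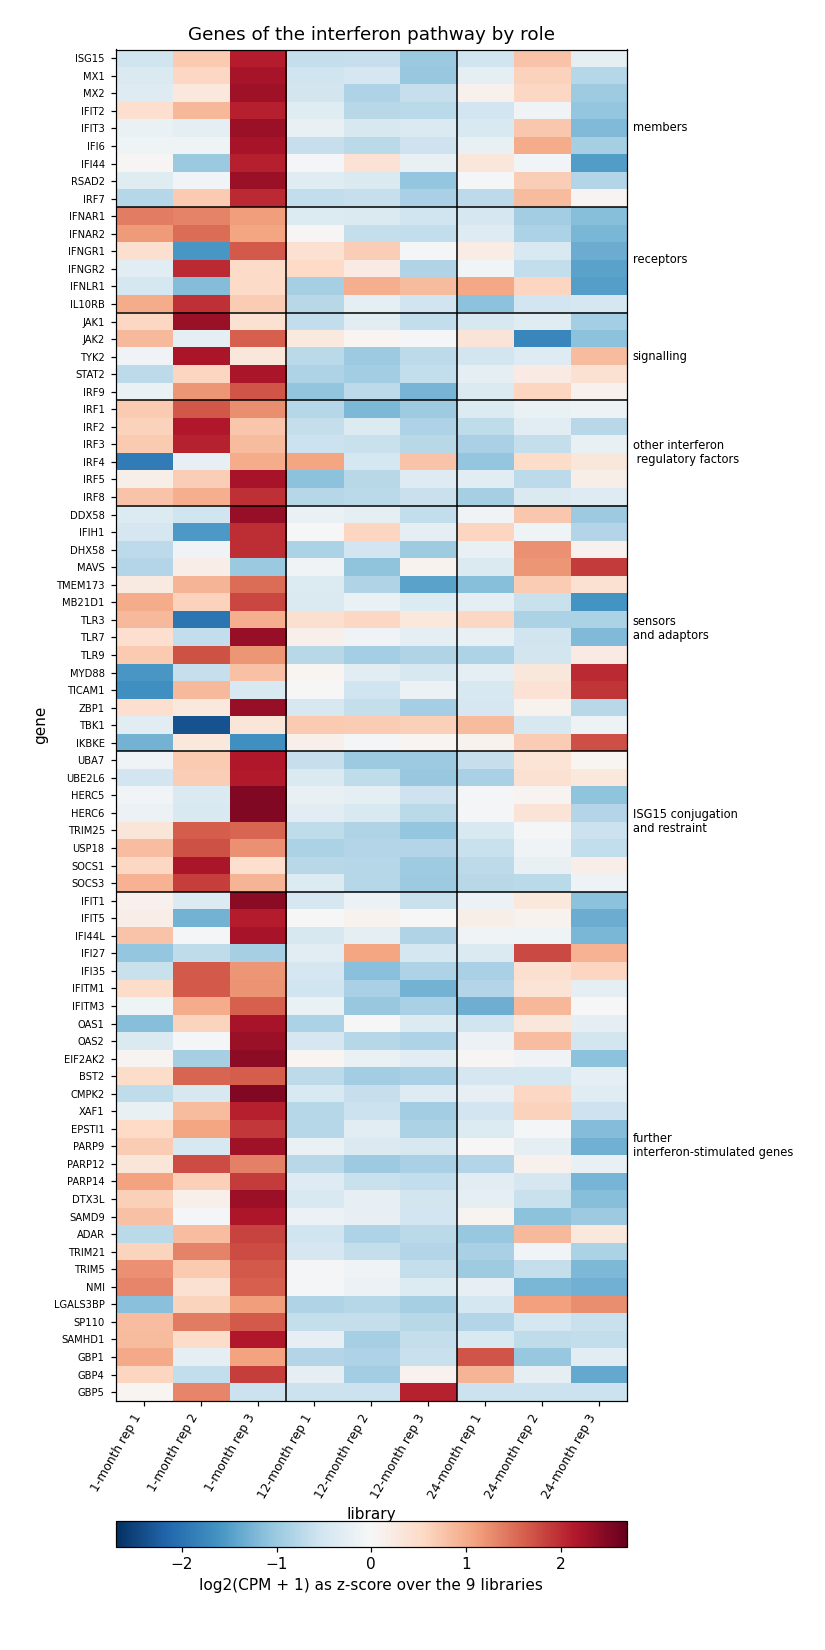
Log2(CPM + 1) of the members and of most genes of the role lists as z-scores over the 9 libraries, with libraries in columns and the genes shown in rows ordered by role. The members and most further interferon-stimulated genes are reddest in 1-month replicate 3, whereas IFNAR1, IFNAR2 and IL10RB are high in all 3 libraries of 1-month glands.

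Markers of other cell types were examined by list, whether or not they moved with the members. The 6 B cell markers summed to 91.6, 286 and 253 CPM at 1 month and 9.60 to 26.1 CPM later, and the 5 plasma cell markers to 643.5, 105 and 1184 CPM at 1 month, 3575 to 3756 CPM at 12 months and 1851 to 2717 CPM at 24 months. The plasmacytoid dendritic cell list, of which 4 of 6 genes were found, summed to 139, 133 and 153 CPM at 1 month and 86.9 to 120 CPM later, with TCF4, which many cell types express, holding the most counts in every library. Of those 4 genes SPIB and IL3RA were called lower at both older ages, and TCF4 and PACSIN1 did not pass. SPIB, a transcription factor also of B cells, was at 7.60, 18.9 and 16.0 CPM at 1 month and 0.110 to 0.6135 CPM later, and IL3RA, the interleukin-3 receptor chain, at 5.53, 4.75 and 10.4 CPM and 0.108 to 1.115 CPM later. The 6 endothelial markers summed to 489, 344 and 639 CPM at 1 month and 294.5 to 567 CPM later, led by VWF in all but 12-month replicate 3. The 6 skeletal muscle markers were highest in 12-month replicate 2, at 279 CPM, led by TTN, where the members summed to 116 CPM. For 1-month replicate 3, where members, macrophage markers (10 of 10 above 3 counts) and neutrophil markers (7 of 7) were each highest, the part of those cells in the members' levels was not tested. In 24-month replicate 2 the members summed to 442 CPM, against 171 and 80.95 CPM in replicates 1 and 3, while neutrophil markers summed to 2.715 CPM, with 6 of 7 above 3 counts and none at 0, and macrophage markers summed to 255 CPM, below the 273 CPM of replicate 3. In 1-month replicate 2, with the most thymocyte RNA, the members summed to 268 CPM.

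Members with more than 1 transcript were compared within the gene, as the percentage of its expected counts. The 18 transcripts included 4 assembled by the authors, and 0 were called in any comparison by edgeR's quasi-likelihood test, of 17, 17 and 16 tested. The share of all transcripts called in those fits is not reported here, so that 0 has no background beside it. The single IFIT2 transcript was at -3.45 and -3.16 on the log2 scale at 12 and 24 against 1 month. Its adjusted p was 0.0714 and 0.104 by edgeR's quasi-likelihood test with Benjamini-Hochberg adjustment. MX1 has a pair of annotated transcripts. XM_018051649.1 stood at 14.6, 77.7 and 476 CPM at 1 month, 15.45, 21.0 and 3.50 CPM at 12 months and 32.0, 90.5 and 15.04 CPM at 24 months, while XM_018051653.1 stood at 24.9, 24.3 and 58.6 CPM, 18.6, 16.5 and 17.0 CPM, and 14.3, 19.5 and 12.0 CPM. The share of XM_018051649.1 in MX1 counts was 37.0%, 76.2% and 89.0% at 1 month, 45.4%, 55.9% and 17.1% at 12 months and 69.2%, 82.2% and 55.7% at 24 months. It was highest in the 3 libraries with the most MX1.

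In IFIT3 the assembled transcript TCONS_00074337 made up 29.0%, 44.7% and 70.4% at 1 month, 18%, 17.1% and 12.5% at 12 months and 9.33%, 37.9% and 31.2% at 24 months. Its level was 98.6 CPM in 1-month replicate 3 and 12.9 CPM in 24-month replicate 2, and at most 6.19 CPM elsewhere. In MX2 the split was uneven within an age, with XM_018051642.1 at 2.28% in 12-month replicate 1 and 0% in 24-month replicate 3, and XM_018051644.1 at 40.9% and 78.6% there but at 0% in the other 4 older libraries. The 5 transcripts of IFI44 also varied between libraries of an age, with XM_005678197.3 at 14.7%, 38.4% and 9.33% at 12 months and TCONS_00007855 at 35.4%, 0% and 5.57% at 24 months. IFI6 counts came almost wholly from XM_018056827.1, with 95.5% to 100% in each library. Expected counts divide shared reads between transcripts by a model, and the precision of these shares was not given in the sources used here.

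**Figure D5:**
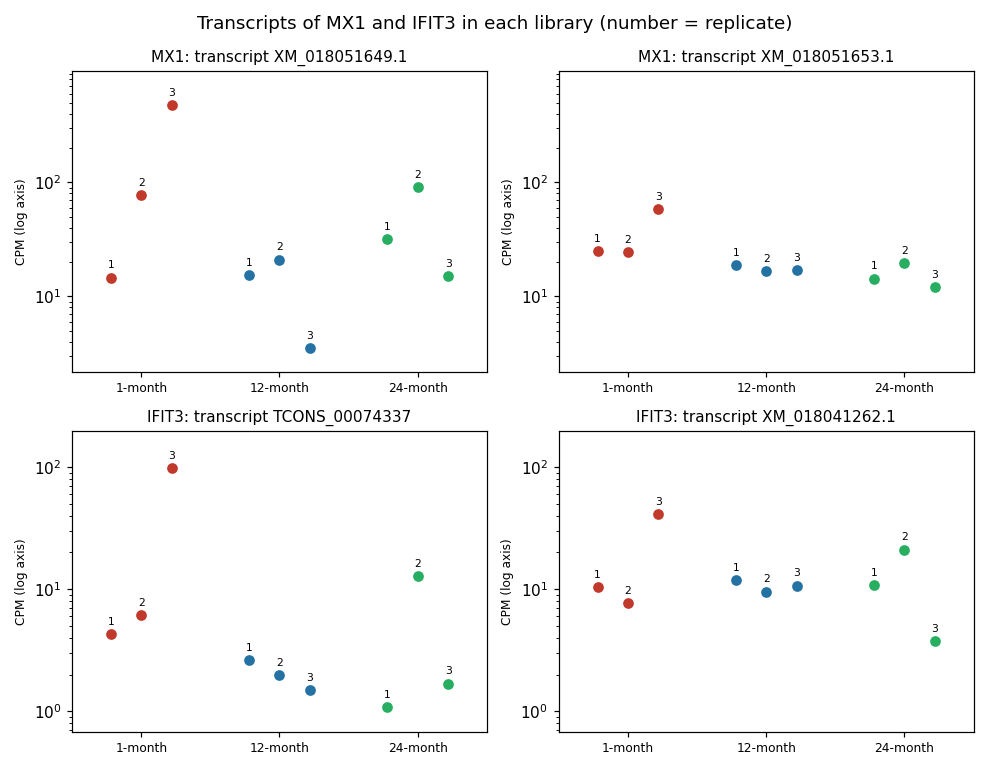
CPM of the pair of MX1 transcripts and the pair of IFIT3 transcripts in each library, on log axes shared within a gene, with points numbered by replicate. XM_018051649.1 of MX1 spans 3.50 to 476 CPM, whereas XM_018051653.1 spans 12.0 to 58.6 CPM.

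The members' common pattern was taken as the mean of their z-scores of log2(CPM + 1), which was 2.19 in 1-month replicate 3, 0.56 in 24-month replicate 2, 0.19 in 1-month replicate 2 and between -0.82 and -0.24 in the other libraries. Among 14157 genes with a mean of at least 1 CPM, those with the highest Pearson correlation to it over the 9 libraries included OAS2 (0.978), HERC6 (0.965), TDRD7 (0.964), DDX58 (0.953), XAF1 (0.951), IL5RA (0.950) and IFIT1 (0.949). Without 1-month replicate 3 and 24-month replicate 2 they were 0.794, 0.640, 0.897, 0.462, 0.851, 0.843 and 0.600 over 7 libraries, lowest for DDX58, IFIT1 and HERC6. OAS2, a sensor of viral RNA that makes a second messenger, was at 2.51, 4.44 and 90.7 CPM at 1 month, 2.23, 1.21 and 1.08 CPM at 12 months and 3.66, 14.2 and 2.11 CPM at 24 months.

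After every gene was centred on the mean of its age, the 8 highest were OAS2 (0.992), TDRD7 (0.976), DDX58 (0.976), RNF213 (0.965), IL5RA (0.963), ZCCHC2 (0.961), LOC102190983 (0.960), whose product is an OAS3, and ZBP1 (0.960). Without the pair of libraries farthest from the median, 1-month replicates 1 and 3, they lay between 0.876 for LOC102190983 and 0.973 for OAS2. The age means had been taken before that pair was left out. The centred value of 1-month replicate 2 therefore still depended on the pair, and these correlations are not free of it. IL5RA encodes the interleukin-5 receptor of eosinophils and some B cells, and its level was 10.5 CPM in 1-month replicate 3 and at most 1.445 CPM elsewhere. The median correlation after centring was 0.751 for the further interferon-stimulated genes, 0.0756 for the receptors and near 0 for all genes. Correlations between pairs of members before centring ranged from 0.388, for IFI44 and IRF7, to 0.985, with a median of 0.866 over 36 pairs. These pair correlations and the list medians used all libraries, and every member was highest in 1-month replicate 3. How far that library alone sets them was not tested.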

How the data were processed

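RNA-seq values of 9 libraries were used. The authors deposited RSEM expected counts for each transcript, made by removing ribosomal reads with Bowtie2 2.2.8, aligning with TopHat2 2.1.1 (build not given in the sources used here) and assembling with Cufflinks (version not given). Here transcripts were summed per gene, rounded and compared for each pair of ages with edgeR 4.0.16 in R 4.3.3 (filterByExpr, TMM, glmQLFit, glmQLFTest) and Benjamini-Hochberg adjustment over all genes tested. Standard errors were taken as the absolute log2 fold change over the root of the F statistic. Without transcript lengths no FPKM threshold could be applied, and the gene said to lead a marker list is the one with the most CPM, uncorrected for length. Members, 6 role lists and 10 marker lists were chosen with earlier results of these data known. Named genes were the members, up to 10 genes per role list with an adjusted p under 0.05 against 1 month, and the 8 most correlated genes before and after centring. IFNGR2, MAVS, HERC5, CMPK2, NMI, TRIM21, OASL and PLSCR1 were added after their values were seen. Some genes counted in the lists are not reported here by name. RefSeq (assembly ARS1.2, matching 42652 of 42686 known transcripts) served for names and gene order only, so no coordinates are given, and 9 genes listed under LOC symbols were found by product after the data were examined. HELZ2, OAS1X, OAS1Y, IFITM2, GBP2, LILRA4 and CLEC4C were not found by name. Alternatives were size factors or the Wald test from DESeq2 1.42.0, no filter on low counts, the exact test of edgeR, a fit of all 9 libraries, the replicate block, single transcripts and leaving out libraries. The fits were tested on simulated data, but no outcome of that is reported here.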

Additional observations from a re-analysis of the deposited data

How the results depend on the processing

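Same-numbered libraries were not paired, since different goats were sampled at each age. Their deviations from the group means correlated at -0.119, -0.119 and -0.109 between 1 and 12 months and at 0.422, 0.196 and -0.234 between 1 and 24 months. Between 12 and 24 months the values were -0.0831, -0.124 and 0.00239. Not every library correlated best with its own number. With the replicate number as a block, 0 members were called in each comparison, with the members' median at -1.97 and -0.74 and IFIT2 at -3 and -2.7 at 12 and 24 against 1 month (adjusted p 0.0770 and 0.0719, edgeR's quasi-likelihood test with Benjamini-Hochberg adjustment). The block fits called 896, 1801 and 7 genes in all for 12 against 1, 24 against 1 and 24 against 12 months, against 1738, 2006 and 0 without the block. With the block 8 and 15 genes of the role lists fell at 12 and 24 against 1 month. IFNAR2 and IL10RB did not pass at 12 months (adjusted p 0.0568 and 0.0532 by edgeR's quasi-likelihood test with Benjamini-Hochberg adjustment). Their log2 fold changes there were -1.93 and -2, against -1.91 and -2.15 without the block, and 926 of all genes passed, against 2719. DESeq2 size factors and no filter on low counts kept 1, 1 and 0 members called. In all, 1730, 1982 and 0 genes were called with those size factors, and 1740, 2030 and 2 without the filter. At 12 against 1 month the count was 4 with DESeq2's Wald test, 6 with edgeR's exact test and 4 with all 9 libraries in one fit. In all 2301, 2285 and 2062 genes were called by those. At 24 against 1 month each of those fits passed 1 member at the adjusted p alone, beside 4053, 3816 and 4400 of all genes. Transcripts tested singly gave 0 at 12 and at 24 against 1 month, with no count over all transcripts reported here. Leaving out each library in turn gave 0 to 7, 0 to 1 and 0 to 1 members called for 12 against 1, 24 against 1 and 24 against 12 months, and medians from -3.44 to -0.97, -2.54 to 0.19 and 0.29 to 1.35. Fitted values that changed sign ranged, in the same order, for IFI44 from -1.61 to 0.54, -1.85 to 0.28 and -0.75 to 0.0737. At 24 against 1 month IFI6 ranged from -2.99 to 0.83, IFIT3 from -2.59 to 0.35, IRF7 from -1.27 to 0.15, MX2 from -2.54 to 0.19 and RSAD2 from -2.49 to 0.57, and at 24 against 12 months IFIT2 from -0.26 to 0.59 and IFIT3 from -0.53 to 0.85. Alternatives chosen after seeing the data left out pairs of libraries. Without 1-month replicates 2 and 3, the lone 1-month library is assumed to vary like the others, so only fold changes are given. The medians at 12 and 24 against 1 month were -0.37 and 0.80, and IFIT2 was at -1.84 and -1.51. IFI44 and IRF7 were at 0.0415 and 0.0695 at 12 months. At 24 months ISG15, MX1, MX2, IFIT3, IFI6, RSAD2 and IRF7 were at 1.84, 0.73, 0.80, 0.32, 0.84, 0.80 and 1.20. Without 1-month replicate 3 and 24-month replicate 2, 0 members were called, with 1013 genes called in all, and IFI44 was at 0.14. The cause of these shifts was not tested. With log2(CPM + 0.1) 7 of the 8 most correlated genes were kept by each measure, IL5RA being the exception.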
